A study of Mus musculus with 16 samples.

Results

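The comparison described here set AB22 cells depleted of HMGB1 against control cells after a single dose of 3 Gy of gamma rays. It used the 4 libraries whose titles name that dose, 2 of shHMGB1 and 2 of shCTRL cells, out of 16 libraries at 4 doses. AB22 is a murine malignant mesothelioma line. The shHMGB1 cells carried a viral pTRIPZ hairpin against Hmgb1 and the shCTRL cells a control hairpin in the same vector. Both lines were selected with puromycin, grown in low oxygen, and used 7 to 10 days after doxycycline was added to switch the hairpin on. Both were held in G1 and irradiated from a caesium source. The design text calls the members of each pair biological replicates. Whether they came from separate cultures is not said, so p-values here rest on a spread between libraries that may be technical. Whether a line was a pool of infected cells or a clone is not said either.

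Each library is a BLISS map of free DNA ends. In BLISS the ends of double-strand breaks are blunted inside fixed cells and joined to an adapter that carries a molecular identifier. The genomic DNA is then cut by sonication, copied into RNA from the adapter, and sequenced outward from the break. HMGB1 is an abundant chromatin protein that bends DNA, binds it without regard to sequence and eases the placing of nucleosomes. Cells that lack it are known to hold fewer nucleosomes, and the study's title concerns the part nucleosomes play in shielding DNA against irradiation. A break end marks a position and is not a measure of a transcript, so markers of a cell type cannot be read from it as from RNA.

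The shHMGB1 libraries held 884530 and 750930 break ends on the main chromosomes (replicates 1 and 2), against 927413 and 131430 in the shCTRL libraries. The shCTRL replicate 2 library was thus by far the smallest, and it alone set the order of the group totals. The ratio of shHMGB1 to shCTRL was 0.954 between the replicate 1 libraries and 5.71 between the replicate 2 libraries. The geometric means, 814997 in shHMGB1 and 349127 in shCTRL, gave a log2 difference of 1.22 (exact two-sided permutation p = 1.0). With 2 libraries against 2, no exact test here can go below p = 0.33. The number of cells behind a library was not given in the sources used here, so more breaks per cell and more cells or deeper sequencing cannot be told apart.

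At equal size the shCTRL replicate 2 library had more ends that shared a position and more pairs of adjoining occupied positions. All 4 libraries were thinned to its 131430 ends, and values are means of 20 random thinnings. The shHMGB1 libraries then held 92262 and 95711 distinct positions, against 95083 and 84643 in the shCTRL libraries, and the groups overlapped (exact p = 0.667). Outside the densest regions, 15.7% and 14.4% of the ends in shHMGB1 shared their exact position with another end, against 15.3% and 30.8% in shCTRL. Pairs of adjoining occupied positions came to 2.06% and 1.63% of the number of distinct positions in shHMGB1, against 1.95% and 5.74% in shCTRL. In the 12 libraries at the other doses, thinned alike, shared ends reached at most 23.5% and adjoining pairs at most 2.93%. The shCTRL replicate 2 library lay above both limits and the other 3 libraries below them. It alone was not thinned, and thinning parts ends that share a position. With all ends kept, shared ends made up 35.8% and 35.0% in shHMGB1, against 43.6% and 30.8% in shCTRL. Adjoining pairs then came to 5.65% and 5.02% of the number of distinct positions in shHMGB1, against 6.53% and 5.74% in shCTRL. Whether its excess at equal size goes beyond the effect of thinning was not tested. Every value below is therefore given for each library.

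Most ends lay in introns and intergenic sequence in all 4 libraries, and the 2 replicate 1 libraries were nearly alike. Each end was put in 1 class, in the order within 1 kb of the transcription start site (TSS) of a protein-coding gene, exon, intron and intergenic. Exons held 12.6% and 7.31% of the ends in shHMGB1, against 12.7% and 15.2% in shCTRL. Intergenic sequence held 34.2% and 38.8% in shHMGB1, against 34.6% and 32.3% in shCTRL. The replicate 2 libraries stood apart from the replicate 1 libraries in opposite directions, low in exons and high between genes in shHMGB1 and the reverse in shCTRL. Between the replicate 1 libraries, shHMGB1 minus shCTRL was -0.126 percentage points for exons and -0.435 for intergenic sequence. Between the replicate 2 libraries it was -7.87 and 6.57 points. Over the pairs, exons averaged 9.95 ± 3.73% in the shHMGB1 libraries, against 13.9 ± 1.75% in those of shCTRL, where ± is the SD of 2 libraries. The exact two-sided permutation p was 0.33, or 0.667 after adjustment over the 4 regions. Intergenic sequence averaged 36.5% in shHMGB1, against 33.4% in shCTRL (exact p = 0.667, adjusted 0.889).

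**Figure D1:**
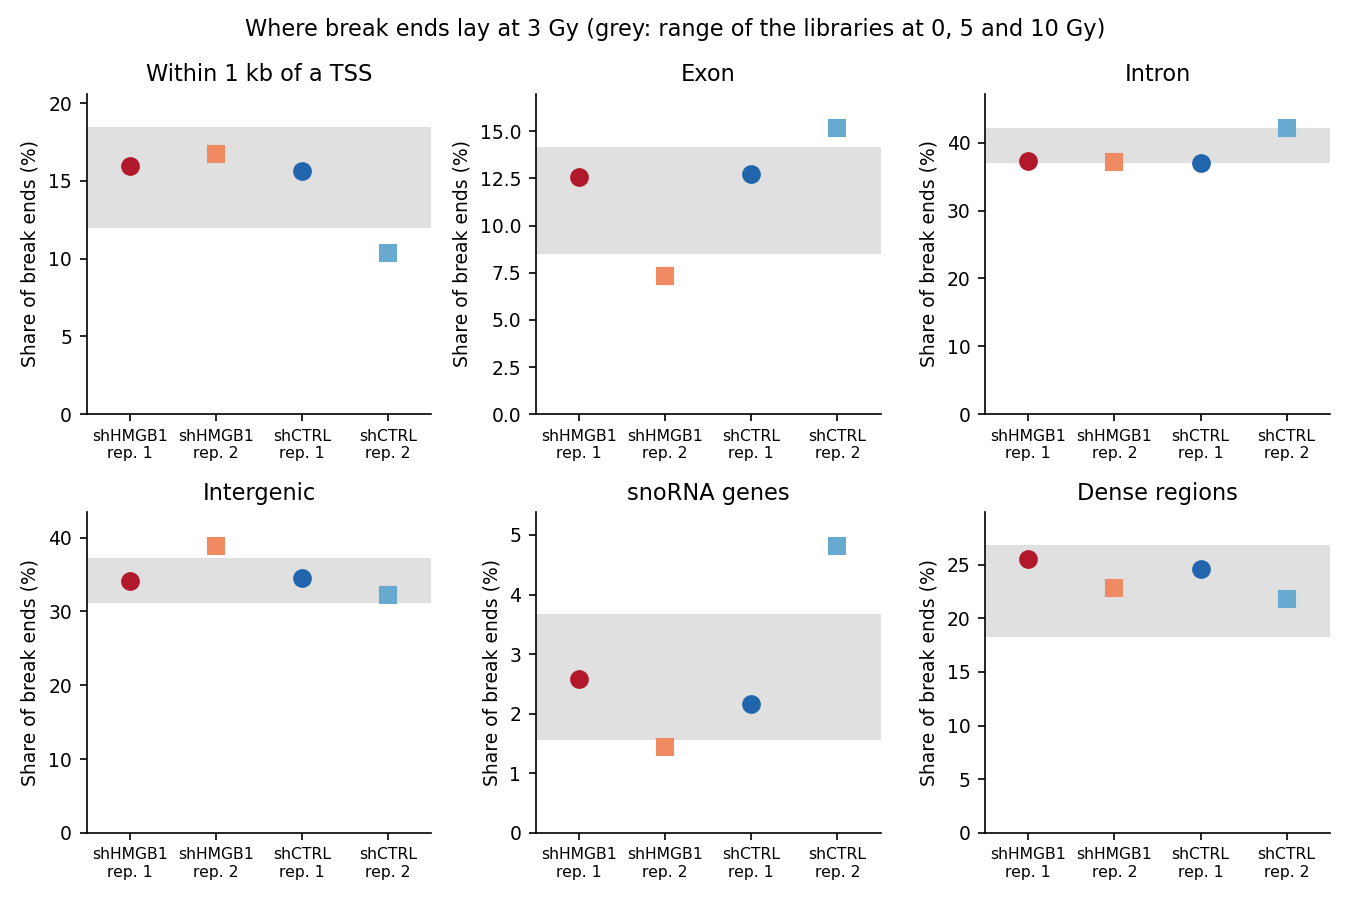
Share of break ends (%) in each of the 4 libraries at 3 Gy, thinned to 131430 ends, for TSS regions, exons, introns, intergenic sequence, snoRNA genes and dense regions; the grey band is the range of the 12 libraries at 0, 5 and 10 Gy. Outside the panel of dense regions, the circles (replicate 1) lie at like heights in both lines. The squares (replicate 2) part there, as for exons at 7.31% in shHMGB1 and 15.2% in shCTRL. In dense regions the lines differ by 0.876 percentage points in replicate 1 and 1.04 in replicate 2.

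Regions near starts held 15.98% and 16.7% of the ends in shHMGB1, against 15.6% and 10.4% in shCTRL. Introns held 37.3% and 37.2% in shHMGB1, against 37.1% and 42.2% in shCTRL. For both classes 3 libraries lay close together and the shCTRL replicate 2 library stood apart. The differences of the means were 3.34 points near starts (exact p = 0.33, adjusted 0.667) and -2.41 points in introns (exact p = 1.0, adjusted 1.0). Among the 12 other libraries the share near starts ran from 12.1% to 18.4% and that of exons from 8.55% to 14.1%. Intergenic shares ran between 31.3% and 37.1% there. So the shHMGB1 replicate 2 library was below the range for exons and above it between genes, and the shCTRL replicate 2 library was above it for exons and below it near starts.

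The share near starts turned round when crowded positions were set aside. With each position counted once it was 4.86% and 4.33% in shHMGB1, against 5.01% and 4.96% in shCTRL. There were 32 densest regions, each reaching 1 kb around clusters with 1000 ends or more in a library. Without them the share was 3.53% and 2.78% in shHMGB1, against 3.60% and 4.23% in shCTRL. Both shHMGB1 libraries then lay below both shCTRL libraries, by 0.391 points on average with each position once and by 0.761 points without dense regions (exact p = 0.33 for both, the smallest possible). Exons outside dense regions held 11.3% and 7.16% in shHMGB1, against 11.04% and 13.2% in shCTRL, so the groups overlapped there (exact p = 0.667). The dense regions themselves held 25.5% and 22.8% of the ends in shHMGB1, against 24.6% and 21.8% in shCTRL, and the groups overlapped.

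Around the TSS both lines had their peak just downstream of the start. Positions, each counted once and outside dense regions, were most frequent 100 to 200 bp downstream of the start in each of the 4 libraries. Of the positions within 2 kb of a start, 14.97% and 13.5% lay within 200 bp of it in shHMGB1, against 14.2% and 13.1% in shCTRL. The groups overlapped (exact p = 0.667). In each line it was the replicate 2 library that held the lower share. Upstream of the start, in the last 200 bp, 100 bp bins held on average 104 and 107 positions in shHMGB1, against 115 and 99.5 in shCTRL. Downstream, in the first 200 bp, they held 278 and 186 in shHMGB1, against 278 and 245 in shCTRL. The downstream value was 2.67 and 1.73 times the upstream one in shHMGB1, against 2.43 and 2.46 times in shCTRL, so the shHMGB1 replicate 2 library stood below the other 3. The difference between the lines in this ratio was not tested.

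Gene-rich parts of the genome showed the same split. Windows of 1 Mb were ranked by their number of protein-coding starts and divided into 4 sets of 644. The richest set, with a median of 18.5 genes a window, held 31.2% and 26.9% of the distinct positions in shHMGB1, against 31.4% and 35.4% in shCTRL. The poorest set, with a median of 1 gene, held 21.3% and 25.03% in shHMGB1, against 21.2% and 16.8% in shCTRL. The replicate 1 libraries were nearly equal in both sets, and the replicate 2 libraries lay on either side of them.

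Small nucleolar RNA (snoRNA) genes were among the most densely hit sequences, and the ends in them dropped off at the edges of the annotated RNA, most sharply at the 3' edge. SnoRNAs guide the chemical modification of ribosomal RNA and are cut out of the introns of host genes. Box C/D snoRNAs carry a C box near the start and a D box near the end, which bind the proteins that protect them. The 1489 annotated snoRNA genes held 2.57% and 1.44% of the ends in shHMGB1, against 2.16% and 4.81% in shCTRL (all at equal size). The shHMGB1 libraries were above and below shCTRL replicate 1, and shCTRL replicate 2 was above all, so no order of the lines held (exact p = 0.667, adjusted over 5 classes 0.667). With each position counted once the shares were 1.37% and 0.904% in shHMGB1, against 1.22% and 2.01% in shCTRL.

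The 20 bases inside the annotated 3' edge of these genes held 7484 and 3836 ends in shHMGB1, against 6844 and 1997 in shCTRL. The 20 bases beyond that edge held 145 and 57 ends in shHMGB1, against 112 and 25 in shCTRL. The drop across the edge was thus 51.6-fold and 67.3-fold in shHMGB1, against 61.1-fold and 79.9-fold in shCTRL. At the 5' edge it was smaller, at 4.19-fold and 5.49-fold in shHMGB1, against 4.90-fold and 4.28-fold in shCTRL. The edge was there in both lines and both replicates, including the smallest library.

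**Figure D2:**
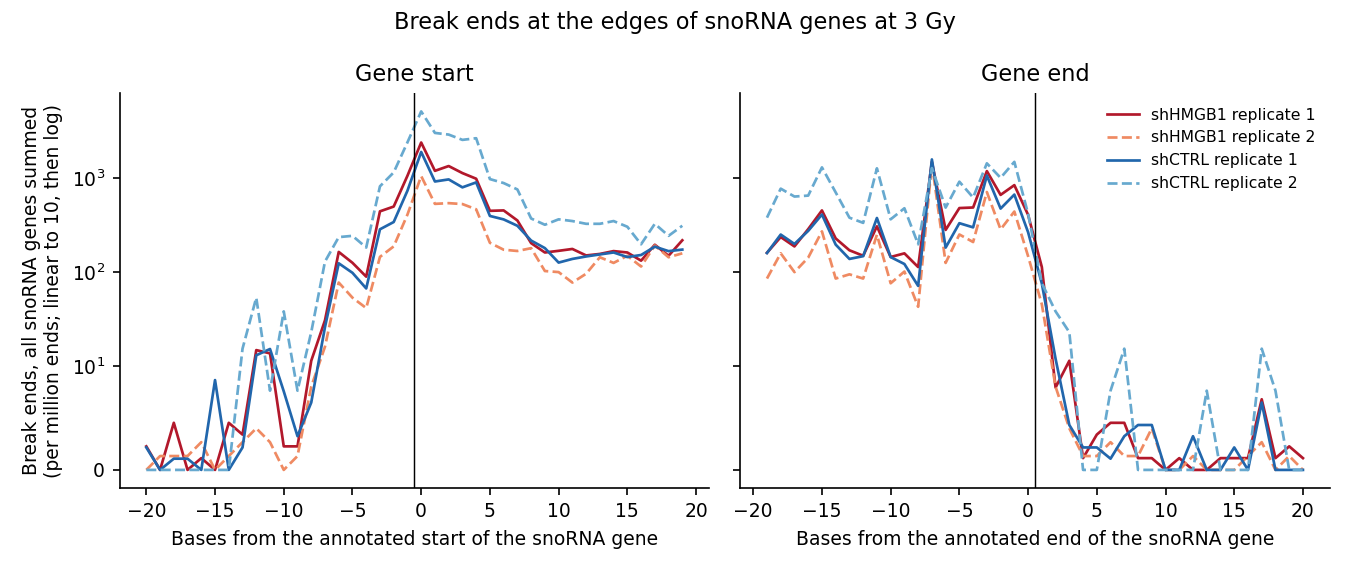
Break ends in plain CPM, scaled to the library total alone (vertical axis, linear to 10 and logarithmic above) at each base around the annotated start (left) and end (right) of the 1489 snoRNA genes, read in the direction of the gene, in the 4 libraries at 3 Gy. All 4 curves fall steeply within a few bases outside the annotated end, where 1.90% and 1.46% (shHMGB1) and 1.61% and 1.24% (shCTRL) of the ends of the 40-base stretch lay.

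The 5 snoRNA genes below are examples in which single bases took up a large share of the ends. They are not all of the genes of this kind. In Snord82, not shown, 1 base held 27.4% and 36.8% of the ends in shHMGB1, against 29.6% and 39.9% in shCTRL. The sequences are GENCODE M21 transcripts in mm10, written 5' to 3', with the most filled base and its neighbours in capitals. Snord87 lies at chr1:9942463-9942549 (minus strand), Snord99 at chr4:132310691-132310764 (plus), Snord83b at chr15:80078498-80078591 (minus), Snord35a at chr7:45126346-45126435 (minus) and Snord38a at chr4:117154514-117154584 (minus).
Snord87: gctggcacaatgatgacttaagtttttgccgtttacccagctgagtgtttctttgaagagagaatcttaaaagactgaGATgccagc
Snord99: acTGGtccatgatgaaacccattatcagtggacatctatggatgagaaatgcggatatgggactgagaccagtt
Snord83b: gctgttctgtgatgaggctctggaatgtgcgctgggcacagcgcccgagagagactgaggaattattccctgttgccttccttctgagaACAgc
Snord35a: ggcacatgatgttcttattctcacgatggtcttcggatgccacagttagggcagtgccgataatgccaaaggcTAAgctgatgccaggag
Snord38a: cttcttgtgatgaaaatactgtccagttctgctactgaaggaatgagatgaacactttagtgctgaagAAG

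In Snord87 the marked base held 1131 of 1241 and 1007 of 1089 ends in shHMGB1, against 1338 of 1472 and 136 of 181 in shCTRL. It is base 80 of 87 and comes 2 bases after the letters CTGA, the D box letters. In Snord38a the marked base, the next to last, held 81.1% and 80.5% of the ends in shHMGB1, against 79.0% and 75.9% in shCTRL. In Snord83b the marked base held 78.6% and 81.0% in shHMGB1, against 81.0% and 78.8% in shCTRL. In both genes it comes 4 bases after CTGA. In Snord99 the marked base is base 4, 6 bases before the C box letters TGATGA, and held 24.7% and 24.0% of the ends in shHMGB1, against 25.3% and 27.9% in shCTRL. In Snord35a it held 29.8% and 37.7% in shHMGB1, against 32.5% and 30.9% in shCTRL, with no CTGA before it. The share at the marked base overlapped between the lines in Snord83b and Snord35a. In Snord87 it was 91.1% and 92.5% in shHMGB1, against 90.9% and 75.1% in shCTRL, where replicate 2 was the low one. Of all 1489 snoRNA genes, 22.0% hold TGATGA in the first 20 bases and 35.3% hold CTGA in the last 20, searched on the strand of the gene; on the opposite strand the shares are 0.201% and 5.37%. These matches are descriptions of the letters.

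Levels of the same genes differed between libraries without a set order of the lines. In plain CPM, the count of ends scaled to the library total, Snord99 had 1404 and 850 in shHMGB1, against 870 and 3104 in shCTRL. Snord35a had 839 and 421 in shHMGB1, against 640 and 2655 in shCTRL. Snord87 departed from this, with 1403 and 1450 in shHMGB1, against 1587 and 1377 in shCTRL. The shCTRL replicate 2 library was thus highest for Snord99 and Snord35a and lowest for Snord87. Of the other small RNA classes, ribosomal RNA genes held 1.78% and 0.718% of the ends in shHMGB1, against 1.69% and 1.81% in shCTRL (exact p = 0.667, adjusted 0.667). MicroRNA genes held 0.0595% and 0.0318% in shHMGB1, against 0.0700% and 0.0852% in shCTRL. Small Cajal body RNA genes held 0.0764% and 0.0532% in shHMGB1, against 0.0785% and 0.161% in shCTRL, and spliceosomal RNA genes 0.140% and 0.0772%, against 0.107% and 0.199%. In microRNA and Cajal body RNA genes both shHMGB1 libraries lay below both shCTRL libraries (exact p = 0.33, adjusted 0.667 for each). Ends in repeated and multicopy small RNA genes cannot be assigned to a single copy, so these class shares are uncertain.

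Gene by gene, 1 of 12831 tested genes (0.00779%) passed the test for a difference between the lines at 3 Gy. The test was edgeR's quasi-likelihood test with Benjamini-Hochberg adjustment, fitted on all 16 libraries, with the 8 groups sharing 1 estimate of the spread. At an unadjusted p under 0.05 there were 826 genes (6.44%), 450 (3.51%) higher and 376 (2.93%) lower in shHMGB1. DESeq2 also called 1 gene, with 517 at an unadjusted p under 0.05. Levels of genes are given as CPM after scaling by TMM factors. TMM put the median log2 difference of all genes at 0.05, and library totals put it at -0.10, a shift of -0.15, and all changes are relative to the TMM scaling. With library totals the unadjusted counts were 203 higher and 611 lower, so the balance of directions depends on the scaling. The standard error of a gene's log2 difference had a median of 0.64. In simulated counts the edgeR test recovered 3 of 93 changed genes at log2 1 and 40 of 93 at log2 2. A gene without a call is thus not shown to be unchanged.

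Hmgb1, the gene the hairpin targets (chromosome 5, 149046702 to 149184489, mm10), held 37 and 21 ends in shHMGB1, against 43 and 5 in shCTRL. As CPM these were 45.2 and 32.4 in shHMGB1, against 48.8 and 32.8 in shCTRL. The groups overlapped and the log2 difference was -0.19 ± 0.41 (SE; edgeR adjusted p = 0.966). Ends in the gene do not check the knockdown of its transcript.

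Ccn5 was the gene that passed the test, and it was lower in shHMGB1. Earlier results over all doses, which include these libraries, had already named it. It encodes a secreted matricellular protein of the CCN family (chromosome 2, 163820861 to 163833146, mm10). It held 18 and 3 ends in shHMGB1, against 75 and 16 in shCTRL. As CPM these were 22.0 and 4.62 in shHMGB1, against 85.1 and 105 in shCTRL, and the groups lay far apart. The fitted log2 difference, shHMGB1 over shCTRL, came to -2.68 ± 0.45 (SE; adjusted p = 0.000549 by the test above in edgeR). The ends were spread, over 17 and 3 positions in shHMGB1 and 65 and 16 in shCTRL, and 0 and 1 of them lay in exons in shHMGB1, against 13 and 0 in shCTRL. Ccn5 kept the call in 12 of 16 other settings. It lost it, with the same direction, when only the 4 libraries at 3 Gy were fitted (adjusted p = 0.113), when all libraries were thinned to the smallest (0.0857), with both of these (0.815), and without shHMGB1 replicate 2 (log2 -2.0027, adjusted p = 0.246). Over all settings the adjusted p ran from 6.6e-06 to 0.815.

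At the other doses Ccn5 was lower in shHMGB1 too. Its log2 difference was -1.45 at 0 Gy, -1.15 at 5 Gy and -1.06 at 10 Gy. None of these passed the adjustment over all genes at its dose (adjusted p = 0.756, 0.458 and 1.0), and the groups did not overlap at any dose. The line difference at 3 Gy minus the mean of those at the other doses was -1.46 ± 0.51 (SE; unadjusted p = 0.00500, edgeR adjusted p = 1.0). So the larger value at 3 Gy is not shown to be particular to that dose. The shHMGB1 replicate 2 library at 3 Gy had the lowest Ccn5 level of the 16.

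**Figure D3:**
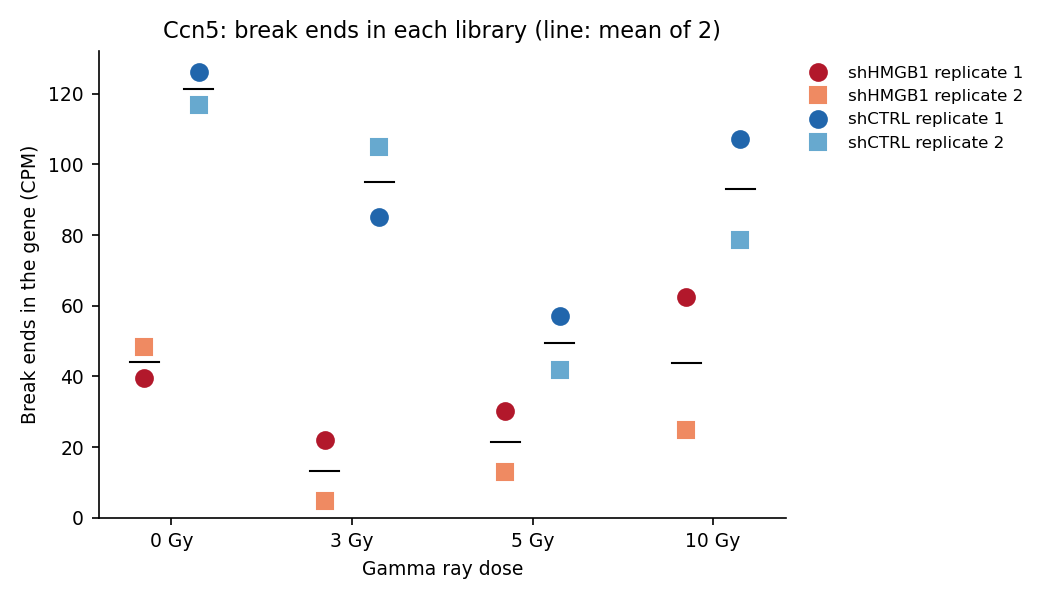
Break ends in Ccn5 (CPM) in each of the 16 libraries by dose, shHMGB1 left of shCTRL at each dose, with a line at the mean of each pair. At 3 Gy the shHMGB1 libraries had 22.0 and 4.62 CPM and the shCTRL libraries 85.1 and 105.

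Across the genome no gene passed the test of its line difference at 3 Gy against that at the other doses. The contrast called 0 of 12831 genes (0.0%; edgeR), with 542 (4.22%) at an unadjusted p under 0.05, 303 (2.36%) higher and 239 (1.86%) lower. DESeq2 called 0, with 306 at an unadjusted p under 0.05. Genes whose 2 shHMGB1 values did not overlap the 2 shCTRL values were common, with 2595 (20.2%) higher and 1851 (14.4%) lower in shHMGB1. The lack of overlap for a named gene is to be read against those shares.

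Other genes of small p that were lower in shHMGB1 did not pass the test. Ncapd2, a subunit of the condensin complex (chromosome 6), held 80.7 and 61.7 CPM in shHMGB1, against 134 and 243 in shCTRL (log2 -1.26 ± 0.32 SE, edgeR adjusted p = 0.513). Of its ends, 64 of 66 and 37 of 40 lay in exons in shHMGB1, against 114 of 118 and 37 of 37 in shCTRL, and the most filled position lies in Scarna10, a small Cajal body RNA within the gene. With each position counted once its log2 difference was -0.20. Edc4, a scaffold of messenger RNA decapping, held 4.89 and 12.3 CPM in shHMGB1, against 49.9 and 19.7 in shCTRL (adjusted p = 0.513). Shkbp1, which binds the adaptor Cin85, held 1 and 0 ends in shHMGB1, against 11 and 5 in shCTRL. Sspn, a membrane protein of the dystrophin complex, and Cldn34c1, a claudin among near-identical copies on the X chromosome, were high in shCTRL replicate 1 alone. Sspn had 47.7 and 27.7 CPM in shHMGB1, against 136 and 19.7 in shCTRL. Reads of Cldn34c1 may be split among its copies, so its 5 and 4 ends in shHMGB1, against 41 and 1 in shCTRL, are uncertain.

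The genes of small p that were higher in shHMGB1 were of 2 kinds, none past the test. Shb, Btd and Zfp791 had most ends at a single intronic base. Shb, an adaptor of tyrosine kinase receptors (chromosome 4, 45423278 to 45532470), held 648 and 452 ends in shHMGB1, of which 584 and 426 were at chr4:45507204. In shCTRL it held 266 and 64, of which 203 and 56 were at that base. Its CPM were 792 and 697 in shHMGB1, against 302 and 420.002 in shCTRL (log2 1.09 ± 0.30 SE, edgeR adjusted p = 0.515). With each position counted once the sign turned, to a log2 difference of -0.47. Btd, the enzyme biotinidase, held 209 and 199 CPM in shHMGB1, against 86.2 and 105 in shCTRL, with 165 of 171 and 124 of 129 ends at 1 base in shHMGB1, against 67 of 76 and 15 of 16 in shCTRL. With each position once its log2 difference was -0.69, and that of Zfp791, a zinc finger protein, -0.08. So the higher values of these 3 genes rested on crowded bases.

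Spef2, a protein of the sperm flagellum, had spread ends instead. It held 68 and 58 ends at 52 and 45 positions in shHMGB1, against 28 and 4 ends at 24 and 4 positions in shCTRL. Its CPM were 83.1 and 89.4 in shHMGB1, against 31.8 and 26.3 in shCTRL (log2 1.49 ± 0.39 SE, adjusted p = 0.513). Slc22a28, a solute carrier, held 15 and 29 ends in shHMGB1, against 6 and 0 in shCTRL. In the small shCTRL replicate 2 library 1 end equals 6.56 CPM, so a count of 0 there, here and below, says little. Ms4a13, of the membrane-spanning 4A family, held 8 and 16 ends in shHMGB1 and 0 in both shCTRL libraries. The fitted change of such a gene depends on the prior count and is not given.

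**Figure D4:**
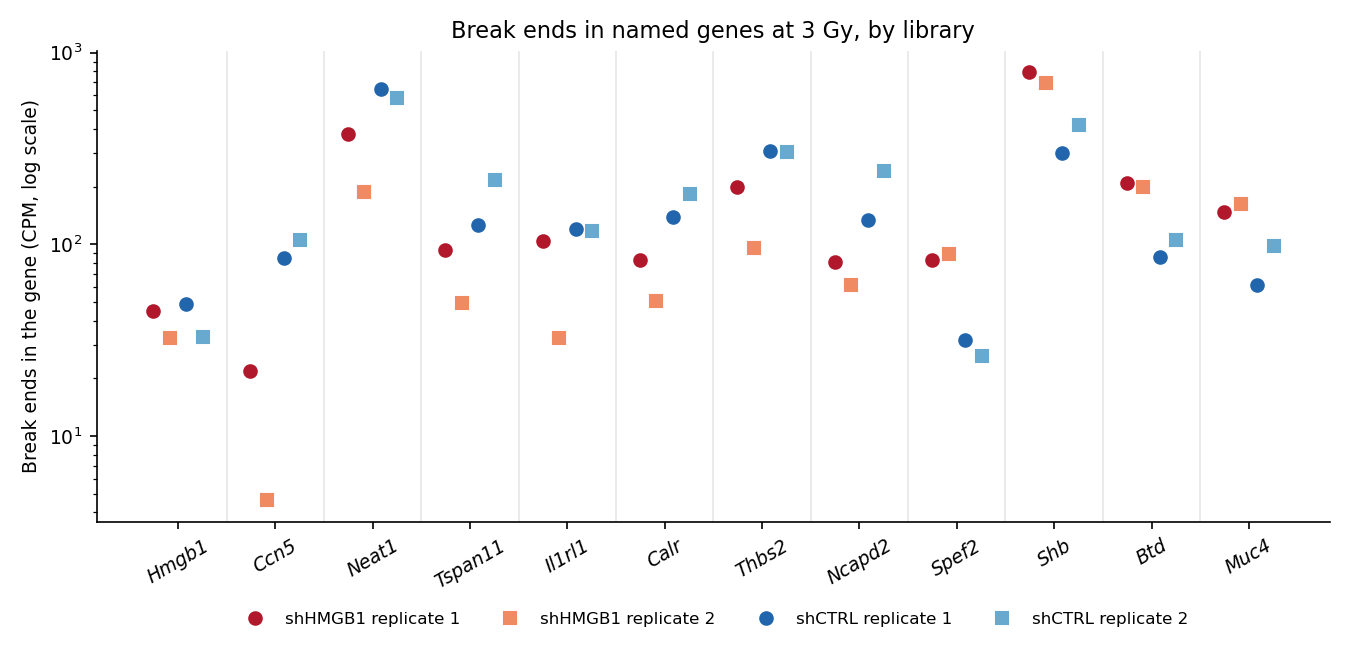
Break ends in 12 named genes (CPM, logarithmic axis) in the 4 libraries at 3 Gy, shHMGB1 (red) left of shCTRL (blue) for each gene. Ccn5 shows the widest gap, while the Hmgb1 values of the lines overlap.

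Genes named in earlier results over all doses kept their direction at 3 Gy, though with these 4 libraries as part of those results this is no independent support. Neat1, the long noncoding RNA of paraspeckles (chromosome 19, 5824708 to 5845478), held 378 and 188 CPM in shHMGB1, against 645 and 584 in shCTRL. Its log2 difference was -1.12 ± 0.31 (SE, edgeR adjusted p = 0.515). Leaving out 1 library moved that difference between -0.66 (without shHMGB1 replicate 2) and -1.71 (without shHMGB1 replicate 1, adjusted p = 0.0195). Calr, the endoplasmic reticulum chaperone calreticulin, held 83.1 and 50.9 CPM in shHMGB1, against 138 and 184 in shCTRL (log2 -1.18 ± 0.33 SE, adjusted p = 0.515). Of its ends, 62 of 68 and 33 of 33 lay in exons in shHMGB1, against 112 of 122 and 28 of 28 in shCTRL. Thbs2, the matrix protein thrombospondin 2, held 199 and 95.6 CPM in shHMGB1, against 309 and 302 in shCTRL (log2 -1.04 ± 0.32 SE, adjusted p = 0.598). Tspan11, a tetraspanin, held 94.1 and 49.3 CPM in shHMGB1, against 126 and 217 in shCTRL. Il1rl1, the receptor of interleukin-33, held 104 and 32.4 CPM in shHMGB1, against 120 and 118 in shCTRL, so its replicate 1 libraries were close. Atf5, a stress-related transcription factor, held 15.9 and 16.96 CPM in shHMGB1, against 23.8 and 118 in shCTRL, where replicate 2 alone was high. In all 6 genes the shHMGB1 and shCTRL values did not overlap, as in 14.4% of all tested genes in this direction. These 6 were chosen from results that include the same libraries, and none passed the test at this dose.

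Of those that were higher over all doses, Muc4, a membrane mucin, held 148 and 162 CPM in shHMGB1, against 61.2 and 98.4 in shCTRL (log2 1.11 ± 0.35 SE, adjusted p = 0.642). Here too a single intronic base carried 106 of 121 and 91 of 105 ends in shHMGB1, against 47 of 54 and 14 of 15 in shCTRL. Mboat2, an acyltransferase, held 101 and 167 CPM in shHMGB1, against 77.1 and 85.3 in shCTRL. It too had a crowded intronic base, with 72 of 83 and 83 of 108 ends in shHMGB1, against 42 of 68 and 10 of 13 in shCTRL. Ddc, which makes dopamine from DOPA, held 26 and 17 ends in shHMGB1, against 7 and 0 in shCTRL. In CPM its levels were 31.8 and 26.2 in shHMGB1, against 7.94 and 0 in shCTRL. Hmox1, heme oxygenase 1, held 4 and 13 ends in shHMGB1, against 1 and 0 in shCTRL, and Apol6, an apolipoprotein L family member, 7 and 8, against 4 and 0. The counts of 0 for Ddc, Hmox1 and Apol6 are all from the smallest library, shCTRL replicate 2. None of Muc4, Mboat2, Ddc, Hmox1 and Apol6 passed the test at 3 Gy.

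The short stretches around the most filled exonic bases of Neat1, Calr and Ncapd2 are shown because ends in these genes recurred there in both lines. They are written 5' to 3' from GENCODE M21 transcripts, with the most filled base and its neighbours in capitals. Neat1 is at chr19:5845041-5845101 (minus strand, noncoding exon), Calr at chr8:84842744-84842804 (minus, coding exon) and Ncapd2 at chr6:125186340-125186400 (minus, an exon of a noncoding transcript of the gene, over the end of Scarna10).
Neat1: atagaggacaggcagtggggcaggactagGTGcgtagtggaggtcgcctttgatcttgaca
Calr: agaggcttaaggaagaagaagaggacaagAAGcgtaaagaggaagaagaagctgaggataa
Ncapd2: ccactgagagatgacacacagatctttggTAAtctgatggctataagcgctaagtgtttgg

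The marked base of Neat1 held 27 and 8 ends in shHMGB1, against 96 and 12 in shCTRL, and that of Calr 15 and 11, against 36 and 8. The base of Ncapd2 held 13 and 9 ends in shHMGB1, against 18 and 20 in shCTRL.

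Among the 18 gene lists, Ccn5 in the matricellular list was the only member past the test, and lists of genes known for high transcription had more negative than positive differences. The list of highly transcribed genes (Actb, Eef1a1, Malat1 and the like) had 28 of 33 members tested, of which 24 had a negative and 4 a positive log2 difference, with a median of -0.44 against 0.05 over all genes. Over all genes tested 46.4% of the differences were negative and 53.6% positive. At an unadjusted p under 0.05, 4 of the 28 were lower and 0 higher, beside 2.93% lower and 3.51% higher over all genes. Ribosomal protein genes had 43 negative and 12 positive of 55 tested, with a median of -0.37. Ends in such genes can lie in snoRNA genes within them. In Rpl13a, Snord35a held 742 of 1193 and 316 of 465 ends in shHMGB1, against 594 of 897 and 349 of 480 in shCTRL. In Rpl3, Snord83b held 969 of 1021 and 559 of 578, against 937 of 972 and 165 of 177. How far the lean of these lists rests on snoRNA genes was not tested. Fibroblast genes, mainly collagens and other matrix genes, had 14 negative and 5 positive of 19 tested (median -0.56), and endoplasmic reticulum chaperones 12 and 4 of 16 (median -0.35). The matricellular list had 9 negative and 3 positive of 12 (median -0.55), and hosts of snoRNAs 12 and 5 of 17 (median -0.45). Ccn5 and Thbs2 of the matricellular list and Calr of the chaperones had been named by earlier results that include these libraries. The lists were chosen with those results known, so the lean of a list, here and below, is no independent support.

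In 3 of these 6 lists the exon levels of the lines overlapped. Levels of lists per kb, here and below, are in plain CPM, without TMM. The TMM factors, which multiply the library totals, were 0.925 and 0.864 in shHMGB1, against 0.951 and 1.16 in shCTRL. Whether the lines overlap in a list can thus depend on the scaling. Exons of the ribosomal protein genes held 13.6 and 6.69 CPM per kb in shHMGB1, against 10.9 and 24.2 in shCTRL, so between the replicate 1 libraries the shHMGB1 value was the higher. Exons of the fibroblast genes held 8.17 and 3.65 CPM per kb in shHMGB1, against 7.87 and 11.2 in shCTRL, and those of the snoRNA hosts 96.95 and 54.4, against 82.4 and 198. Exons of the highly transcribed genes held 37.1 and 23.2 CPM per kb in shHMGB1, against 42.5 and 58.2 in shCTRL. Those of the matricellular genes held 7.25 and 2.99 in shHMGB1, against 7.96 and 10.2 in shCTRL, and those of the chaperones 6.08 and 2.67, against 7.58 and 8.16. In these 3 lists both shHMGB1 values lay below both shCTRL values. Col1a1, the main chain of type I collagen, held 505 and 267 CPM in shHMGB1, against 460.5 and 564 in shCTRL, and the groups overlapped. Gas5, a host of many snoRNAs, held 3686 and 2150 CPM in shHMGB1, against 3535 and 6280 in shCTRL, and these also overlapped. Of its ends, 707 of 3016 and 329 of 1395 in shHMGB1 lay in Snord80, against 797 of 3117 and 288 of 957 in shCTRL. Ncl, the nucleolar protein nucleolin, held 809 and 607 CPM in shHMGB1, against 834 and 1857 in shCTRL. Most of these ends lay in Snord82, a snoRNA gene inside Ncl, with 536 of 662 and 315 of 394 in shHMGB1, against 624 of 735 and 243 of 283 in shCTRL.

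Long genes and neuronal genes had more positive than negative differences. The 24 long genes of fragile sites, all tested, had 22 positive and 2 negative differences, with a median of 0.49, beside 53.6% positive over all genes. Of the 24, 6 were higher and 0 lower at an unadjusted p under 0.05, beside 3.51% and 2.93% over all genes. Introns of these long genes held 0.272 and 0.340 plain CPM per kb in shHMGB1, against 0.261 and 0.306 in shCTRL. Their exons held 0.243 and 0.401 in shHMGB1, against 0.332 and 0.390 in shCTRL. In plain CPM the lines thus overlapped in both. Neuronal genes had 16 positive and 3 negative of 19 (median 0.44). Of 330 vomeronasal receptors 69 passed the filter on low counts, with 51 positive and 18 negative (median 0.37), and of 1134 olfactory receptors 10, all positive. That filter favours members with many ends, so these counts of receptors support nothing. Introns of the neuronal genes held 0.243 and 0.307 plain CPM per kb in shHMGB1, against 0.247 and 0.187 in shCTRL, and again the replicate 1 libraries were close. Cntnap2, a long neuronal cell adhesion gene, held 550 and 748 CPM in shHMGB1, against 580 and 335 in shCTRL. Macrod2 held 2643 and 3539 CPM in shHMGB1, against 2129 and 4515 in shCTRL. At 1 intronic base sat 1458 of 2163 and 1479 of 2296 of its ends in shHMGB1, against 1085 of 1877 and 577 of 688 in shCTRL.

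Lists tied to the response to damage leaned less or rested on few members. Double-strand break repair genes had 13 positive and 8 negative of 21 tested (median 0.10). Of them, Xrcc4, a partner of the ligase that joins broken ends, held 236 and 307 CPM in shHMGB1, against 154 and 203 in shCTRL (log2 0.66 ± 0.30 SE, adjusted p = 0.767). A single intronic base carried 118 of 193 and 133 of 199 of its ends in shHMGB1, against 73 of 136 and 27 of 31 in shCTRL. Prkdc, the catalytic subunit of the DNA-dependent kinase of that pathway, held 110 and 109 CPM in shHMGB1, against 83.9 and 144 in shCTRL. Targets of p53 had 5 positive and 8 negative of 13 (median -0.32), and immediate early genes 4 and 6 of 10 (median -0.29). Genes for HMG proteins and other architectural factors had 7 positive and 8 negative of 15 (median -0.11). Hmga2, a minor-groove binding HMG protein, held 149 and 67.8 CPM in shHMGB1, against 141 and 151 in shCTRL. Zinc finger genes had 96 positive and 88 negative of 184 (median 0.04). Of 74 histone genes 1 passed the filter.

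Lists of cell type markers were sparse. Mesothelial markers had 6 of 14 members tested and blood cell markers 7 of 18, with 0 called in either. Exons of the mesothelial list held 0.461 and 0.388 plain CPM per kb in shHMGB1, against 0.503 and 1.11 in shCTRL. The last value is from a library with 25 ends in the whole list. Exons of the blood cell list held 0.791 and 0.647 plain CPM per kb in shHMGB1, against 0.400 and 0.761 in shCTRL, without TMM scaling. That list held 126 and 114 ends in shHMGB1, against 122 and 14 in shCTRL.

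Promoters gave no call. Of 398 promoters with enough ends within 1 kb of the start, 0 (0.0%) passed edgeR's adjusted test and 33 (8.29%) had an unadjusted p under 0.05, 26 (6.53%) higher and 7 (1.76%) lower. DESeq2 called 0, with 26 at an unadjusted p under 0.05. The median log2 difference was 0.01 with TMM and -0.66 with library totals, and with those totals 3 were higher and 34 lower at an unadjusted p under 0.05. The direction of promoter changes thus depended on the scaling. The promoters of Gpsm3, Wbp2, Tnfsf13, Hyou1 and Lpl had the smallest p among the higher ones, each with an adjusted p of 0.170. That of Gpsm3, a modulator of G protein signalling, held 44 and 51 ends in shHMGB1, against 11 and 9 in shCTRL. In plain CPM that is 49.7 and 67.9 in shHMGB1, against 11.9 and 68.5 in shCTRL, so without TMM the groups overlapped. That of Hyou1, a chaperone of the endoplasmic reticulum, held 128 and 92 ends in shHMGB1, against 69 and 18 in shCTRL, or 145 and 122 in plain CPM, against 74.4 and 137, which overlapped too. Among the lower ones, those of Gnb1l and Rtl10 overlap and held 0 ends in both shHMGB1 libraries, against 21 and 0 in shCTRL, and that of Kif26b held 2 and 3, against 31 and 1. Zc3h10 held 1 and 0 ends, against 10 and 2, and Tnk2 held 2 and 1, against 10 and 5.

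On the scale of 1 Mb, 0 of 2578 windows passed edgeR's test (0.0%), with 292 (11.3%) at an unadjusted p under 0.05, 107 (4.15%) higher and 185 (7.18%) lower. DESeq2 called 1 window, with 292 at an unadjusted p under 0.05. A window's log2 difference had a median standard error of 0.19, so the windows are measured far more finely than genes. The window of smallest p, chromosome 2 from 166000001 to 167000000 with Ncoa3, Sulf2 and Prex1, held 309 and 288 plain CPM in shHMGB1, against 443 and 533 in shCTRL (log2 -0.73 ± 0.18 SE, adjusted p = 0.373). Among the higher windows, chromosome 10 from 97000001 to 98000000, with the small leucine-rich proteoglycans Dcn, Lum, Kera and Epyc, held 336 and 296 in shHMGB1, against 212 and 175 in shCTRL (log2 0.58 ± 0.18 SE, adjusted p = 0.373). The other 3 named lower windows outside the Y chromosome and the 4 other named higher windows had adjusted p-values of 0.373 as well.

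The profiles over windows ranked the libraries as the region shares had. As a description over 2578 windows that share genes, mappability and base composition, Pearson's r of log2 CPM was 0.964 between the replicate 1 libraries of the lines and 0.811 between their replicate 2 libraries. Within a line it was 0.927 in shHMGB1 and 0.887 in shCTRL. The pair most alike thus crossed the lines, and it joined the larger library of each line. Pairs with the smallest library, shCTRL replicate 2, had the lowest r, at most 0.893. How far library size set these values was not tested.

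Positions that recurred in many libraries were looked at by themselves, a comparison added after the data were seen. Outside dense regions, 716 positions held at least 200 ends over the 16 libraries, 157 in small RNA genes, 66 in other exons, 254 in introns and 239 between genes. None passed edgeR's adjusted test (0.0%), and 121 (16.9%) had an unadjusted p under 0.05, 63 (8.8%) higher and 58 (8.1%) lower. DESeq2 called 2, with 76 at an unadjusted p under 0.05. Within small RNA genes 26 had an unadjusted p under 0.05 and 0 of these were higher in shHMGB1. Within introns 29 of 39 and between genes 30 of 39 were higher.

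**Figure D5:**
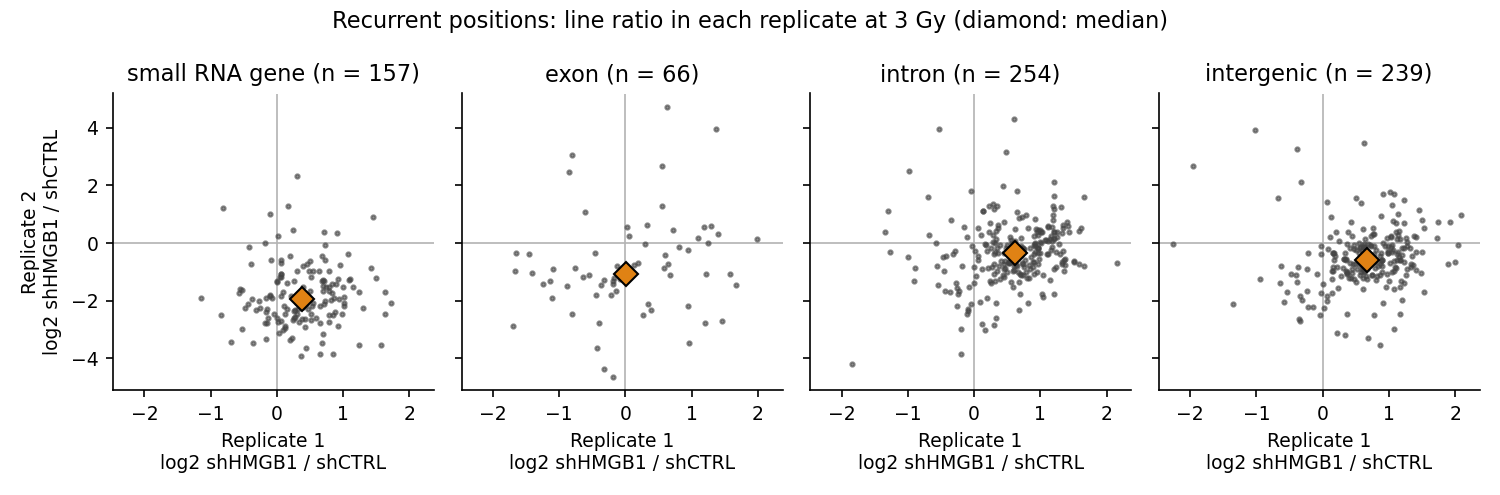
Log2 ratio of shHMGB1 to shCTRL plain CPM, with 2 added to each, at 716 recurrent positions, between the replicate 1 libraries (horizontal) and between the replicate 2 libraries (vertical), by class, with the median as a diamond. Positions in introns and between genes lie to the right, with medians of 0.62 and 0.67 between replicate 1 libraries, while those in small RNA genes lie low, with a median of -1.94 between replicate 2 libraries.

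In the replicate 1 libraries, 213 of 254 intronic and 209 of 239 intergenic recurrent positions had a higher plain CPM in shHMGB1. In the replicate 2 libraries it was 84 and 53. Small RNA positions were higher in shHMGB1 for 123 of 157 between the replicate 1 libraries and for 9 between the replicate 2 libraries. The replicates thus differed in the direction of most recurrent positions. All intergenic recurrent positions together held 2.37% and 2.19% of the ends in shHMGB1, against 1.54% and 3.64% in shCTRL, so the shCTRL libraries lay on either side of the shHMGB1 ones.

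The positions with the smallest p were the base in Shb and an intergenic base at chr2:52751132, each with an adjusted p of 0.0946. The intergenic base held 148 and 123 ends in shHMGB1, against 45 and 13 in shCTRL (log2 1.44 ± 0.30 SE). The marked base of Neat1 followed, at 30.5 and 10.7 plain CPM in shHMGB1, against 104 and 91.3 in shCTRL (log2 -2.27 ± 0.54 SE, adjusted p = 0.177). Next came chr2:140955882, which lies in an intron of Macrod2 and in Calr-ps, a processed pseudogene of Calr, with 12 and 3 ends in shHMGB1, against 50 and 14 in shCTRL (adjusted p = 0.177). Reads from Calr and from its pseudogene may be split between the copies, so both are uncertain. The other named positions included Snord17, Snord42a, Snord35a and Scarna10 sites, each with its highest level in shCTRL replicate 2.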

How the data were processed

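Break ends were measured by BLISS in 4 libraries at 3 Gy, 2 of shHMGB1 and 2 of shCTRL cells. The submitters' processing notes name Trimmomatic 0.32, UMI-tools, BWA 0.7.5-r404, SAMtools, bedtools and the build mm10, without order or settings. The deposited values are raw counts, not normalised by the authors: each line gives a cluster, the position of each end and a count. The files keep no strand. Ends were placed at their own positions, made 1-based, and those on the mitochondrial genome and scaffolds were left out. GENCODE M21 gave 21910 protein-coding and 10142 long noncoding genes, and where genes overlap, every one of them received the end.

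Shares were compared after 20 random thinnings to 131430 ends (102819 outside dense regions) by exact two-sided permutation tests. For counts, the quasi-likelihood functions of edgeR 4.0.16, run in R 4.3.3, were fitted to the 16 libraries as 8 groups, with TMM and filterByExpr, adjusted over all features at 0.05. The scripts were tested on simulated data with changes of log2 1 or 2 in either direction in the shHMGB1 libraries at 3 Gy. In 1 Mb windows 99 of 100 were recovered at each size. False calls were 14 in windows, 5 in genes and 0 in promoters. Named genes were Hmgb1, genes past the test, up to 6 of smallest p in each direction without predicted genes, 2 members of most ends per list, and 12 genes named by earlier results over all doses. For promoters and windows 5 in each direction were taken. Alternatives were DESeq2 1.42.0, other scalings, filters, thinning, distinct positions, replicate blocks and each library left out. Members and lists were chosen with earlier results of these data known. Shares, permutation tests and figures were made in Python 3.11.15 (numpy 2.4.6, pandas 2.3.3, matplotlib 3.10.9).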

Additional observations from a re-analysis of the deposited data

Results flagged for a closer look

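Ends on unplaced scaffolds, left out of the comparisons except for an alternative total of all ends, made up a larger share of both shHMGB1 libraries than of both shCTRL libraries at 3 Gy. The shares were 0.642% and 0.670% in shHMGB1, against 0.504% and 0.480% in shCTRL, a difference of the means of 0.164 percentage points. The same order held at 0 Gy, with 0.516% and 0.511% in shHMGB1, against 0.461% and 0.411% in shCTRL. It did not hold at 5 Gy, with 0.453% and 0.596% in shHMGB1, against 0.745% and 0.556% in shCTRL. Nor did it hold at 10 Gy, with 0.541% and 0.641%, against 0.707% and 0.444%. What lies on these scaffolds was not tested.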

How the results depend on the processing

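With 2 libraries a group, 1 library often set the result, and the smallest library limits the counts of single genes. Ranges in this paragraph leave out each library in turn, and each is shHMGB1 relative to shCTRL. The log2 total ran between -0.19 (without shCTRL replicate 2) and 2.63, and log2 distinct positions between -0.017 (without shCTRL replicate 2) and 0.15. In percentage points, shares ran between 0.722 and 5.96 near starts, -6.63 and -1.36 in exons, -4.96 and 0.141 (without shCTRL replicate 2) in introns, and 0.732 and 5.40 between genes. They ran between -2.80 and -0.152 for snoRNA, -0.0908 and 0.00152 for snRNA, -0.0957 and -0.0137 for scaRNA, -0.0459 and -0.0182 for miRNA, -1.03 and 0.0330 for rRNA genes, -0.472 and 2.39 for dense regions, and -0.157 and 1.33 for the share within 200 bp of a start. Log2 differences ran between -0.48 and 0.36 for Hmgb1, -2.91 and 0.0092 for Cldn34c1, and -1.88 and 1.06 for Sspn, each with its highest value without shCTRL replicate 1.

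The share near starts turned to -0.391 points with each position counted once, -0.124 with at most 3 ends a position and -0.761 without dense regions. The share in dense regions turned to -0.116 points with clusters of at least 300 ends. With each position once, the log2 differences of Shb, Btd and Zfp791 turned to -0.47, -0.69 and -0.083. The cause of these turns was not tested beyond the crowded bases given above.

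The 1 call among genes became 0 with all libraries thinned to the smallest, 0 with the 4 libraries at 3 Gy alone and 0 with both. Leaving out each library gave 0 to 45 calls: 7 without shHMGB1 replicate 1, 0 without shHMGB1 replicate 2, 45 without shCTRL replicate 1, of which 1 was shared with the reported call, and 2 without shCTRL replicate 2. Without shCTRL replicate 1, promoters gave 18 calls, windows 132, the contrast with other doses 3 and recurrent positions 1. Without shHMGB1 replicate 1, windows gave 70 and recurrent positions 11. The other left-out libraries gave 0 in these comparisons. Of the named genes, calls were gained for Ncapd2 (adjusted p = 0.0319) and Atf5 (0.0264) without shCTRL replicate 1, for Sspn (0.00899) without shCTRL replicate 2, and for Neat1 (0.0195) and Thbs2 (0.0317) without shHMGB1 replicate 1. A group left with 1 library is assumed to vary like the others. DESeq2 called 1 window and 2 recurrent positions, and windows of 100 kb gave 1 call. With a replicate block within each line, 2 promoters and 1 gene of the contrast with other doses were called. With the replicate number as a block over both lines, genes gave 1 call and recurrent positions 4. Same-numbered libraries did not deviate together (r = -0.0876 over 12831 genes), so the numbers are not shown to pair them.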
